A study of Homo sapiens with 6 samples.

Results

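A set of 10 genes of the acute-phase and inflammatory cytokine response was followed in Rh30 cells: the serum amyloid A genes SAA1 and SAA2, the chemokine genes CXCL8, CXCL1, CXCL2 and CCL2, and the cytokine genes IL6, IL11, LIF and EBI3. All probes that the platform annotation names for these genes were taken, which gave 13 probes for 10 genes, out of 47323 probes on the array. Rh30 is an established human cell line of alveolar rhabdomyosarcoma, a muscle-like tumour, and carries the PAX3-FOXO1 (PAX3-FKHR) fusion. The 3 siP/CAF samples received an siRNA against P/CAF, a lysine acetyltransferase and transcriptional coactivator encoded by KAT2B, and the 3 control siRNA samples received a scrambled siRNA. Total RNA was taken 72 h after transfection in both groups, and each sample was read on 1 Illumina HT-12 bead array. All samples are of 1 cell line, the sources used here do not give the number of siRNA sequences, and the labels do not say whether replicates were grown as separate cultures. The p-values below therefore cover no more than the variation among these 6 samples, part or all of which may be technical. One siP/CAF sample carries no number in its title and is called replicate 3. The 10 genes were chosen with the difference between these groups already known, so their own differences are described below without p-values. Calls and intervals given for these 10 genes are likewise a description and no test.

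Serum amyloid A proteins are apolipoproteins that the liver, and other cells under inflammatory signals, secrete in large amounts during the acute phase. Chemokines are secreted proteins that draw leukocytes: CXCL8, CXCL1 and CXCL2 act on neutrophils through the receptors CXCR1 and CXCR2, and CCL2 draws monocytes through CCR2. IL6, IL11 and LIF are cytokines that signal through the shared receptor chain gp130, encoded by IL6ST, to the transcription factor STAT3, and EBI3 is a secreted subunit that pairs with other chains to form cytokines of the IL-12 family. Transcription of many of these genes is known to be driven by NF-kappaB, C/EBP and AP-1 factors, and the short-lived mRNAs of several of them are controlled by proteins that bind AU-rich elements.

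Between 20891 and 21421 probes were detected per array (detection p under 0.05), and median bead signals lay between 79.1 and 89.7. Arrays of one group correlated at 0.981 to 0.994 over the 21232 probes that were detected on at least 3 of the 6 arrays and so were tested. KAT2B (probe ILMN_3243142) gave signals of 178, 172 and 136 in siP/CAF cells, against 749, 608 and 1093 in control siRNA cells, a log2 difference of -2.77 with an SE of 0.22 (limma, Benjamini-Hochberg adjusted p = 1.91e-04). A second KAT2B probe, ILMN_1733802, lay near background and was not tested. It read 69.2, 78.8 and 76.7 in siP/CAF cells, against 86.8, 90.8 and 94.3 in control siRNA cells. Of 11806 tested genes, each read on its tested probe of highest mean, 5.37% were called, meaning an adjusted p under 0.05. Of all tested genes, 2.28% were called higher and 3.09% lower in siP/CAF cells, and the median log2 difference was -0.01. Of 17 genes that mark Rh30 as a muscle tumour, 15 were detected on each of the 6 arrays, MYOD1 and MYOG among them. The remaining markers, NOS1 and TFAP2B, were detected on no array by any of their probes.

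After P/CAF silencing SAA1, CXCL8 and EBI3 were several-fold higher, LIF was slightly higher on every array, and CCL2 and IL11 were expressed at overlapping levels. SAA2, CXCL1, CXCL2 and IL6 were at or near the array's background in both groups. Of the 13 probes 6 were detected on all 6 arrays, 3 on 1 array and 3 on none, and 1 SAA1 probe was detected on the 3 siP/CAF arrays and on no control siRNA array. Of the 10 genes, 6 had a tested probe. Of these 6 genes, 3 were called (SAA1, CXCL8 and EBI3), all higher, where 5.37% of all tested genes were called. Signals did not overlap between groups, with siP/CAF higher, for 4 of the 6, where 6.70% of all tested genes behaved so, and for none with siP/CAF lower, where 9.95% did. Nothing is read from these counts, because the genes were chosen on this contrast. SAA1, moreover, passed the detection filter only through the group in which it was high.

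**Figure D1:**
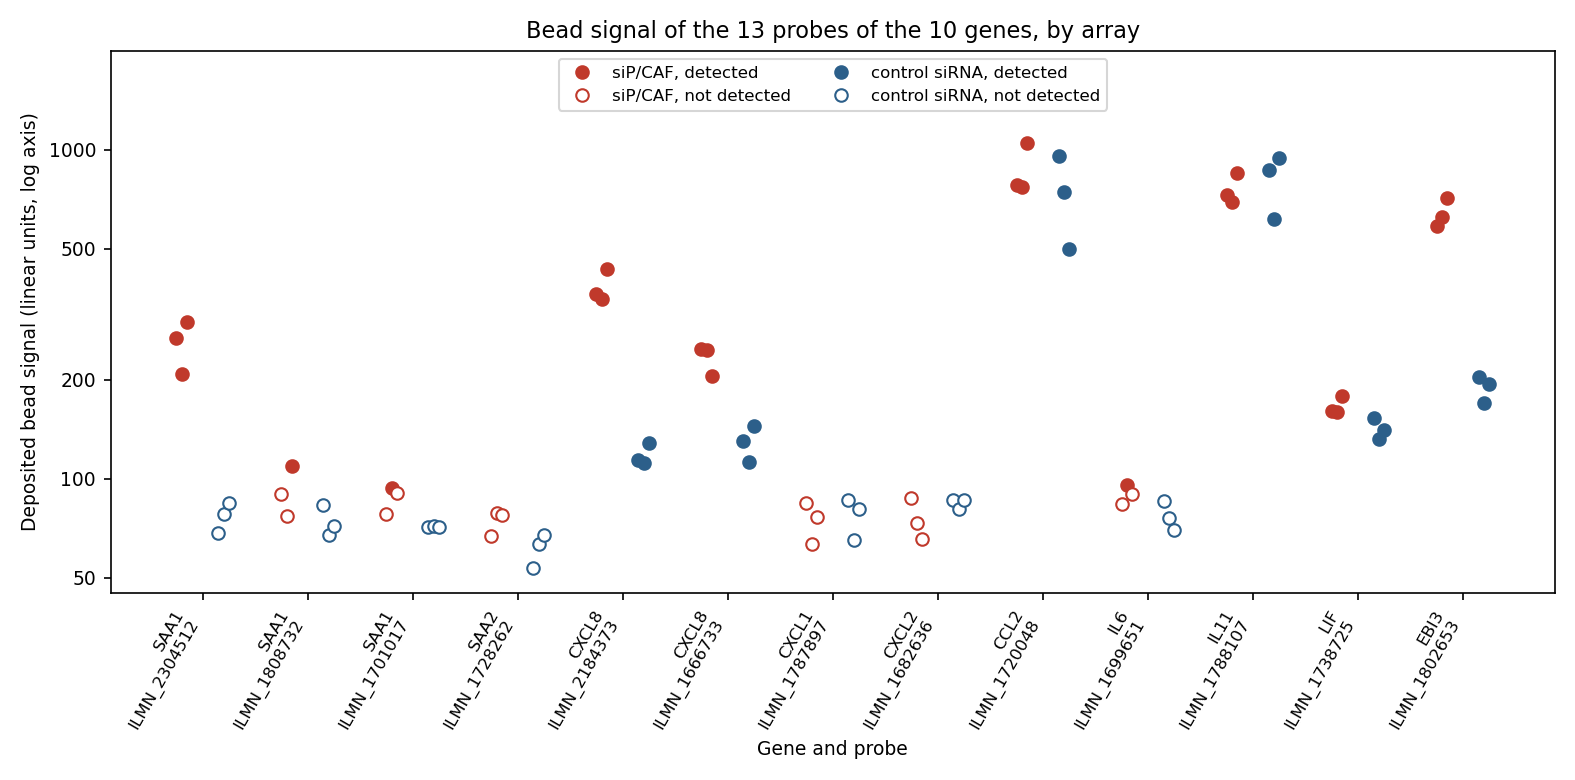
Deposited bead signal (linear units on a log axis) of each of the 13 probes on the 3 siP/CAF arrays (red, left of each position) and the 3 control siRNA arrays (blue, right); each point is 1 array, filled where the probe was detected. The groups are apart for 1 SAA1 probe, both CXCL8 probes and EBI3, close for LIF, and mixed for CCL2 and IL11, while the remaining probes lie between 53.7 and 109.7.

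The stretches upstream of 5 of the genes are shown. They set CXCL8 and EBI3, which were higher in siP/CAF cells, beside IL11, whose signals overlapped between groups, and beside CXCL1 and IL6. CXCL1 and IL6 lay at or near background, so whether they differed between groups could not be read. Sequences of 250 bases before the transcription start were available for 6 of the 10 genes (RefSeq, build GRCh38.p14) and are written 5′ to 3′ on the gene's strand. They come from chr4:73740319-73740568 (plus strand) for CXCL8, chr19:4229273-4229522 (plus strand) for EBI3, chr4:73869143-73869392 (plus strand) for CXCL1, chr7:22726950-22727199 (plus strand) for IL6 and chr19:55370464-55370713 (minus strand) for IL11. Capitals mark matches, on either strand, to an NF-kappaB-like motif (GGNNTTTCC), the AP-1 motif (TGANTCA) and a C/EBP-like motif (TTGCNNAA), none of which overlap here.
CXCL8: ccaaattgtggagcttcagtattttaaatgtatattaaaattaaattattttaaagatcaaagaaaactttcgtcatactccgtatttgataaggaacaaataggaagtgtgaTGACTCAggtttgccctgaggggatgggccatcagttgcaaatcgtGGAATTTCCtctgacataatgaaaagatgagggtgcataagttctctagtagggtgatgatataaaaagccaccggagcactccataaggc
EBI3: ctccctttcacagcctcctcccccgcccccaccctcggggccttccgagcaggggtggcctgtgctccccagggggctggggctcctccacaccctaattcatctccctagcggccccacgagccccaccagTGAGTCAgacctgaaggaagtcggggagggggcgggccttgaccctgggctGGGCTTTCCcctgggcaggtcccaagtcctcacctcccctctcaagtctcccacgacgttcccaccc
CXCL1: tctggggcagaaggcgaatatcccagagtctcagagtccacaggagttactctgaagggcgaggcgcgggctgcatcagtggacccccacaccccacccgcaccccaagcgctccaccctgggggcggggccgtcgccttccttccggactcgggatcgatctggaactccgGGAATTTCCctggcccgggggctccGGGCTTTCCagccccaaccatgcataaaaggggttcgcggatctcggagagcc
IL6: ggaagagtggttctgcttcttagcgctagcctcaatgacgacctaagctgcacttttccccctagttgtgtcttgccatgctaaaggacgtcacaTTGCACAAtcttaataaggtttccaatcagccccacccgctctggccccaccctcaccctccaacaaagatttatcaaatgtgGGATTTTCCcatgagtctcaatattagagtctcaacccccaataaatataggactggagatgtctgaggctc
IL11: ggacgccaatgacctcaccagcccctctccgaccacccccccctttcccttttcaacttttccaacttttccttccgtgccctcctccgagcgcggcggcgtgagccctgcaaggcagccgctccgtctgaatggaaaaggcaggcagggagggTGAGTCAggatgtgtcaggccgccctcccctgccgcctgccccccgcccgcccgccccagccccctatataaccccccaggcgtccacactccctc

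CXCL8 held GGAATTTCC and TGACTCA, and EBI3 held GGGCTTTCC and TGAGTCA, so each had a match to the NF-kappaB-like and to the AP-1 motif. No sequence was at hand for SAA1, the third gene that was several-fold higher, nor for SAA2, CCL2 and LIF. CXCL1 held 2 NF-kappaB-like matches and no AP-1 match, IL6 held 1 NF-kappaB-like and 1 C/EBP-like match, and IL11 held 1 AP-1 match alone. The CXCL2 stretch, not printed, was 70.1% identical to that of CXCL1 over the alignment and held the same 2 NF-kappaB-like matches. It also held 1 C/EBP-like match, which CXCL1 lacked. Among 35116 promoters of the same length, 5.48% held the NF-kappaB-like motif, 6.57% the AP-1 motif, 9.05% the C/EBP-like motif and 0.39% both of the first 2. The only pair counted was the one that CXCL8 and EBI3 held. No share was taken for the NF-kappaB-like and C/EBP-like pair, which IL6 and CXCL2 held, so nothing about CXCL8 and EBI3 is read from the 0.39%. The motifs were chosen with known sites of such genes in mind. A match describes these letters only.

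Of the acute-phase genes, SAA1 was read by 3 probes. Its brightest probe, ILMN_2304512, gave signals of 267, 208 and 301 in siP/CAF cells, against 68.3, 78.1 and 84.7 in control siRNA cells. All siP/CAF arrays detected it and no control siRNA array did, and the groups were far apart. Normalized log2 values averaged 7.68 ± 0.41 in siP/CAF cells and 4.76 ± 0.25 in control siRNA cells (SD, n = 3 each), and on this background-corrected scale siP/CAF cells were at least 5.69-fold above control siRNA cells, set at the lowest detected level. That bound holds for the corrected scale alone, since the mean deposited signals had a ratio of 3.36. The log2 difference was 2.92 (SE 0.22) after background correction and 1.58 without it, so its size rests on how background is treated.

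The other SAA probes stayed close to background. ILMN_1808732 gave 89.9, 77.2 and 109.7 in siP/CAF cells, against 83.4, 67.4 and 71.9 in control siRNA cells, and was detected on siP/CAF array 3 alone. ILMN_1701017 gave 78.0, 93.6 and 90.5 in siP/CAF cells, against 71.4, 72.0 and 71.6 in control siRNA cells, and was detected on siP/CAF array 2 alone. The first of these overlapped between groups, and the second did not overlap in its deposited signals but did once normalized. The bright probe is annotated to another SAA1 transcript record than these 2 probes. SAA2, whose product is nearly identical to that of SAA1, was read by 1 probe at 66.9, 78.9 and 77.9 in siP/CAF cells, against 53.7, 63.5 and 67.7 in control siRNA cells. No array detected SAA2, so no SAA2 transcript was detectable by its own probe, and whether the bright SAA1 probe also reads SAA2 was not tested.

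Among the neutrophil chemokines, CXCL8 was detected on all 6 arrays by both of its probes. On ILMN_2184373 signals were 364, 352 and 435 in siP/CAF cells, against 114, 112 and 129 in control siRNA cells. Every siP/CAF array lay above every control siRNA array, and normalized log2 values averaged 8.40 ± 0.27 in siP/CAF cells and 5.95 ± 0.23 in control siRNA cells (SD, n = 3 each), a log2 difference of 2.45 (SE 0.19). On ILMN_1666733 signals were 248, 246 and 206 in siP/CAF cells, against 130, 113 and 144 in control siRNA cells, a log2 difference of 1.34 (SE 0.16). Both probes were higher in siP/CAF cells without overlap, yet one read a fold of 5.46 and the other of 2.54. Without background correction the log2 differences were 1.61 and 0.82. The 2 probes also ordered the siP/CAF arrays differently, since array 3 was the highest on the first and the lowest on the second.

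CXCL1 and CXCL2, close relatives of CXCL8 that act on the same receptor, gave no detectable signal. CXCL1 read 84.4, 63.3 and 76.8 in siP/CAF cells, against 86.3, 65.2 and 80.8 in control siRNA cells. CXCL2 read 87.5, 73.6 and 65.6 in siP/CAF cells, against 86.2, 80.7 and 86.2 in control siRNA cells. Both overlapped between groups, neither was detected on any array, and a difference below the array's background could not be seen.

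CCL2, the monocyte chemokine, was well expressed in both groups. Its signals were 783, 770 and 1047 in siP/CAF cells, against 960, 746 and 498 in control siRNA cells. The groups overlapped, with control siRNA array 3 the lowest of the 6. The log2 difference was 0.38 (95% interval from -0.24 to 1.01), and without control siRNA array 3 it was 0.05.

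Of the gp130 cytokines, IL11 and LIF were detected on all 6 arrays and IL6 was near background. IL11, a profibrotic cytokine, read 727, 694 and 851 in siP/CAF cells, against 870, 617 and 942 in control siRNA cells, a log2 difference of -0.01 (95% interval from -0.39 to 0.37). The IL11 signals overlapped. LIF, which keeps stem cells undifferentiated in mouse, read 160, 160 and 178 in siP/CAF cells, against 153, 132 and 141 in control siRNA cells. Every siP/CAF array lay above every control siRNA array for LIF, by a log2 difference of 0.41 (95% interval, not adjusted for the number of probes, from 0.04 to 0.78), and LIF was not called. IL6 read 83.8, 95.5 and 89.7 in siP/CAF cells, against 85.8, 75.8 and 69.7 in control siRNA cells. It was detected on siP/CAF array 2 alone, and its groups overlapped.

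EBI3, the shared chain of interleukins 27 and 35, stood clearly apart. Its signals were 588, 624 and 712 in siP/CAF cells, against 204, 170 and 194 in control siRNA cells. No siP/CAF array came near the control siRNA arrays, and normalized log2 values averaged 9.23 ± 0.21 in siP/CAF cells and 7.02 ± 0.09 in control siRNA cells (SD, n = 3 each). The log2 difference was 2.21 (SE 0.16), and it was 1.73 without background correction.

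**Figure D2:**
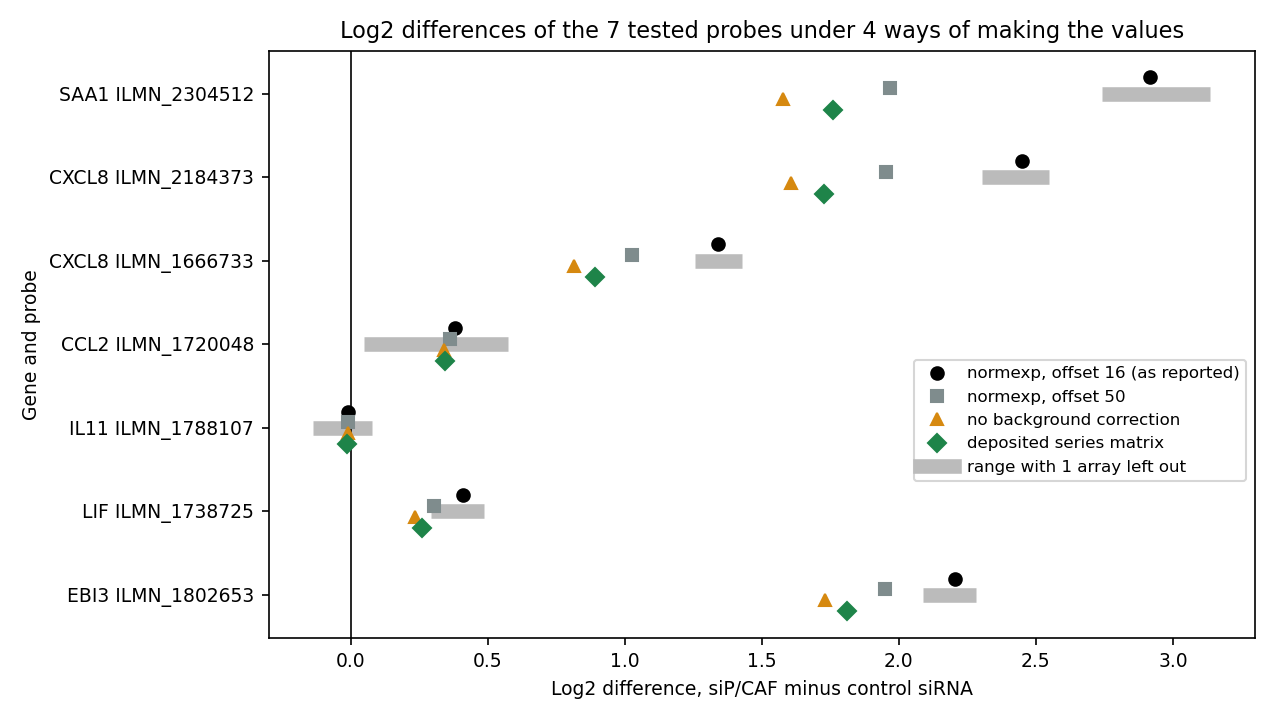
Log2 difference (siP/CAF minus control siRNA) of the 7 tested probes, with symbols for 4 ways of making the values and a grey bar for the range when 1 of the 6 arrays was left out. SAA1, CXCL8 and EBI3 stay above 0 in each way shown, from 1.58 to 2.92 for SAA1 and from 1.73 to 2.21 for EBI3, while IL11 lies at 0 and the CCL2 bar reaches from 0.05 to 0.57.

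The gene lists used here and below were chosen with earlier results of these data known. Their shares, set beside those of all tested genes, are therefore a description and no test of a list. The receptors and partner chains of these proteins were mostly not detectable. Of 20 listed genes 6 were tested: 1 rose (2.28% of all tested genes rose), none fell and 5 were not called, with a median log2 difference of 0.01. IL27RA, the receptor chain for EBI3-containing interleukin 27, gave signals of 725, 782 and 883 in siP/CAF cells, against 488, 467 and 418 in control siRNA cells. It rose by 0.97 on the log2 scale without overlap (limma, Benjamini-Hochberg adjusted p = 0.0237), but the call was lost without control siRNA array 1 or any 1 siP/CAF array (adjusted p up to 0.0982). The gp130 gene IL6ST (0.38) and LIFR (-0.36) were detected and not called, as were TLR4 (0.62), SDC1 (-0.61) and SCARB1 (-0.53). CXCR1, CXCR2, IL6R and the EBI3 partner genes IL27 and IL12A were detected on none of the 6 arrays, and CCR2 on 1 control siRNA array. The listed gene IL11RA had no annotated probe, so it was not measured.

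Few of the other chemokine and inflammatory cytokine genes could be tested. Of 37 other chemokine genes only 7 were tested, of which none rose (limma, with 3 of the 7 at an unadjusted p under 0.05 in either direction) and 1 fell (3.09% of all tested genes fell), and the median log2 difference was 0.12. CCL24, an eosinophil chemokine, read 92.0, 66.1 and 91.2 in siP/CAF cells, against 183, 98.2 and 118 in control siRNA cells. CCL24 was not detected on any siP/CAF array, so that it passed the filter through the control siRNA arrays alone. It was at least 1.93-fold lower in siP/CAF cells (limma, Benjamini-Hochberg adjusted p = 0.0451) and lost its call without background correction and without any 1 array except control siRNA array 2 (adjusted p up to 0.135). CCL5, a chemokine for T cells and monocytes, measured 0.52 and was not called. A dimmer CCL5 probe, which passed the filter through the siP/CAF arrays alone, was at least 1.38-fold higher (limma, Benjamini-Hochberg adjusted p = 0.00761). CXCL17 measured -0.78 and was not called. Of 31 other cytokine genes 12 were tested and none was called in either direction by limma, with 4 at an unadjusted p under 0.05 and a median of 0.01. The members with the smallest p were IL15 (-0.55), IL34 (-0.70) and IL23A (0.41). IL32, with a signal of up to 8097 in siP/CAF cells and up to 5497 in control siRNA cells, measured 0.68 without overlap and was not called.

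Of 30 other acute-phase genes only 4 were tested, of which 1 rose, 1 fell and 2 were not called, where 2.28% of all tested genes rose and 3.09% fell. SERPINA1, which encodes the protease inhibitor alpha-1-antitrypsin, read 486, 537 and 515 in siP/CAF cells, against 247, 215 and 219 in control siRNA cells, and rose 2.83-fold (SE 0.16 on the log2 scale; limma, Benjamini-Hochberg adjusted p = 0.00114). A second SERPINA1 probe rose by 1.39 (limma, Benjamini-Hochberg adjusted p = 8.74e-04). Of the 4 SERPINA1 probes, only these 2 were detected on any array. SERPINA3, which encodes alpha-1-antichymotrypsin, read 106, 91.0 and 120 in siP/CAF cells, against 290, 190 and 184 in control siRNA cells, and fell by 1.69 on the log2 scale (SE 0.26; limma, Benjamini-Hochberg adjusted p = 0.00693). Neither gene overlapped between groups. CFB measured 0.16 and ALB -0.03, neither called, and the C-reactive protein gene CRP, the haptoglobin gene HP and C3 were detected on no array.

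Of 28 tested among 30 listed NF-kappaB genes, 3 rose (10.7%, where 2.28% of all genes rose) and none fell, with a median log2 difference of 0.17. TRAF1, an adaptor of TNF receptors that NF-kappaB itself induces, read 367, 469 and 356 in siP/CAF cells, against 170, 127 and 178 in control siRNA cells, and rose by 1.82 on the log2 scale (SE 0.17; limma, Benjamini-Hochberg adjusted p = 5.47e-04). RELB, a subunit of the non-canonical dimer, read 289, 298 and 286 in siP/CAF cells, against 183, 168 and 198 in control siRNA cells, and rose by 0.97 (SE 0.15; limma, Benjamini-Hochberg adjusted p = 0.00810). NFKB2, its p52 partner, rose by 0.59 (limma, Benjamini-Hochberg adjusted p = 0.0427), but lost the call when any 1 array other than control siRNA array 3 was left out (adjusted p up to 0.159), and its second probe measured 0.58 and was not called. The groups did not overlap for these 3 genes. A dimmer TRAF1 probe measured 0.67 and was not called. RELA (0.16), NFKB1 (0.27), the inhibitor gene NFKBIA (0.41) and the feedback gene TNFAIP3 (0.58) were not called. Of the 28 tested genes, 10 had an unadjusted p under 0.05 by limma, all of them higher in siP/CAF cells. Over all 8 lists 38 of 130 tested genes had such a p, in either direction, and the 28 are part of these 130. The share of all tested genes with such a p is not given here. Nothing is therefore read from counts of unadjusted p, in this list or in any other. Among the 10 were NFKBIE (0.57), NFKBIZ (0.57), MAP3K8 (0.60), MAP3K14 (0.53) and IER3 (0.53), none of them called.

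The factors that carry gp130 and C/EBP signals showed no called change. Of 30 listed genes 29 were tested and limma called none, with 4 at an unadjusted p under 0.05 and a median log2 difference of -0.06. PIAS3, an inhibitor of STAT3, measured -0.55, the AP-1 subunit FOSL1 0.73 and STAT5B -0.48. The STAT3-induced feedback gene SOCS3 measured 0.03, STAT3 0.11, CEBPB -0.06 and CEBPD -0.41.

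Genes that set the lifetime of AU-rich mRNAs held 1 rise and 1 fall among 24 tested of 28 listed (8.33% called, where 5.37% of all genes were called), with a median log2 difference of -0.03. DUSP1, a phosphatase that switches off p38 and so favours decay of such mRNAs, read 5472, 6665 and 6375 in siP/CAF cells, against 2510, 2076 and 2810 in control siRNA cells, and rose by 1.33 on the log2 scale (SE 0.16; limma, Benjamini-Hochberg adjusted p = 0.00206). ELAVL1, which encodes the stabilising protein HuR, read 262, 290 and 236 in siP/CAF cells, against 499, 431 and 704 in control siRNA cells, and fell by 1.14 (SE 0.18; limma, Benjamini-Hochberg adjusted p = 0.00938). Neither overlapped. The decay factor genes ZFP36 (0.46) and ZC3H12A (0.28) were not called, nor was MAPK13 (0.49).

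Of the sensors and adaptors of danger signals, 3 rose (15.0%, where 2.28% of all genes rose) and none fell among 20 tested of 34 listed, with a median log2 difference of 0.01. TICAM2, an adaptor of TLR4, read 552, 555 and 471 in siP/CAF cells, against 270, 183 and 266 in control siRNA cells, and rose by 1.47 on the log2 scale (SE 0.15; limma, Benjamini-Hochberg adjusted p = 9.69e-04). IRAK2, a kinase-like relay of interleukin 1 and Toll-like receptors, read 222, 192 and 190 in siP/CAF cells, against 112, 102 and 134 in control siRNA cells, and rose by 1.34 (SE 0.18; limma, Benjamini-Hochberg adjusted p = 0.00368). STING1, the adaptor for cytosolic DNA, rose by 0.67 (limma, Benjamini-Hochberg adjusted p = 0.0289) and lost the call when any 1 array other than control siRNA array 3 was left out (adjusted p up to 0.120). None of the 3 overlapped between groups. The double-stranded RNA sensor genes IFIH1 (0.68) and RIGI (0.53) were not called, and TLR3, TLR7 and TLR8 were not tested.

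**Figure D3:**
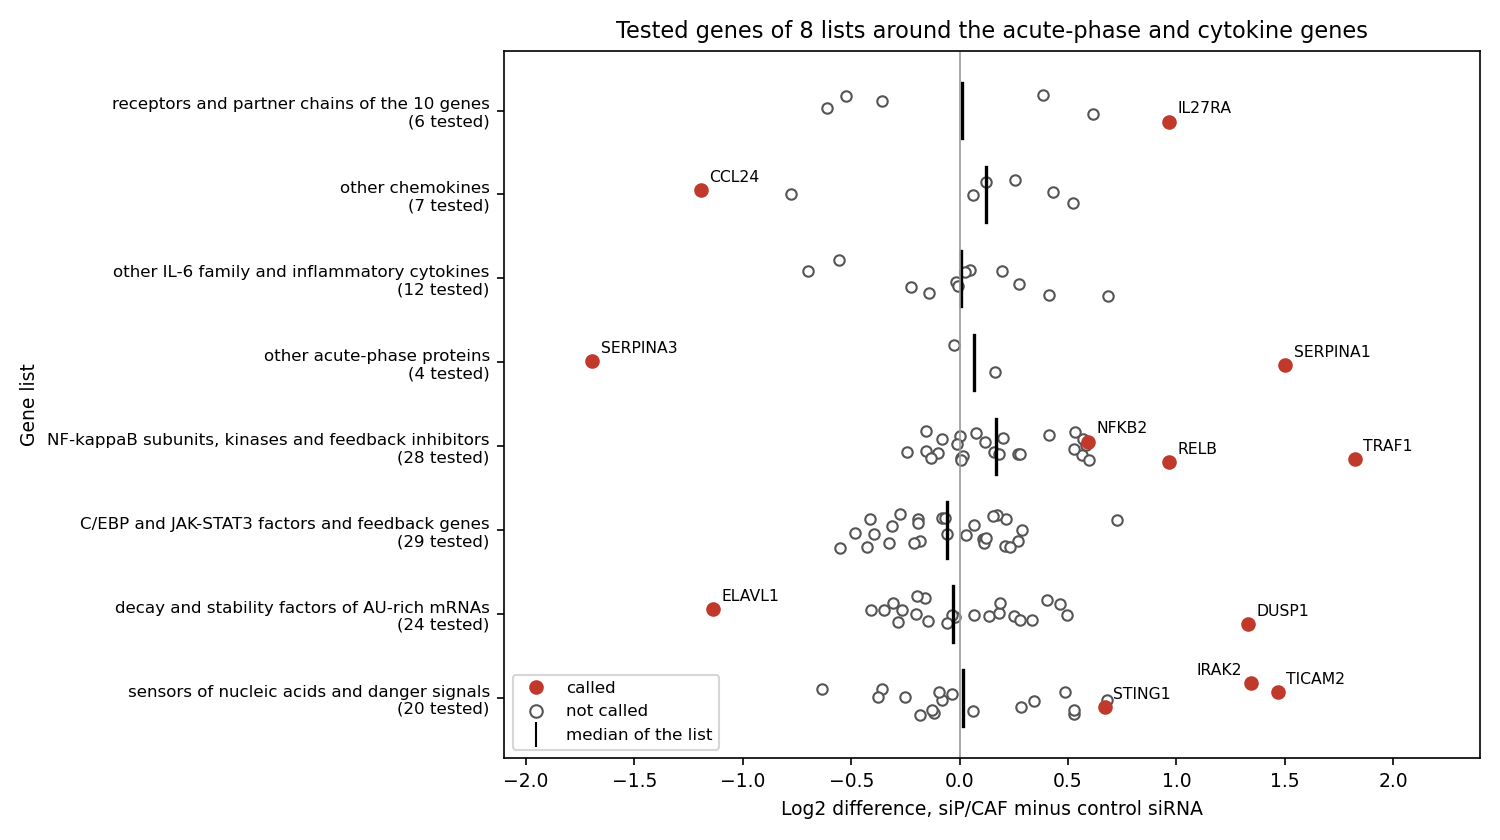
Log2 difference (siP/CAF minus control siRNA) of each tested gene in 8 lists, 1 point a gene, filled and named where called, with a bar at the list's median. List medians lie between -0.06 and 0.17, and the 12 called genes are 9 higher and 3 lower in siP/CAF cells.

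Over all 8 lists 130 of 240 genes were tested and 12 were called (9.23%, where 5.37% of all genes were called), 9 higher and 3 lower. As the lists were chosen with earlier results of these data known, nothing is read from this share.

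**Figure D4:**
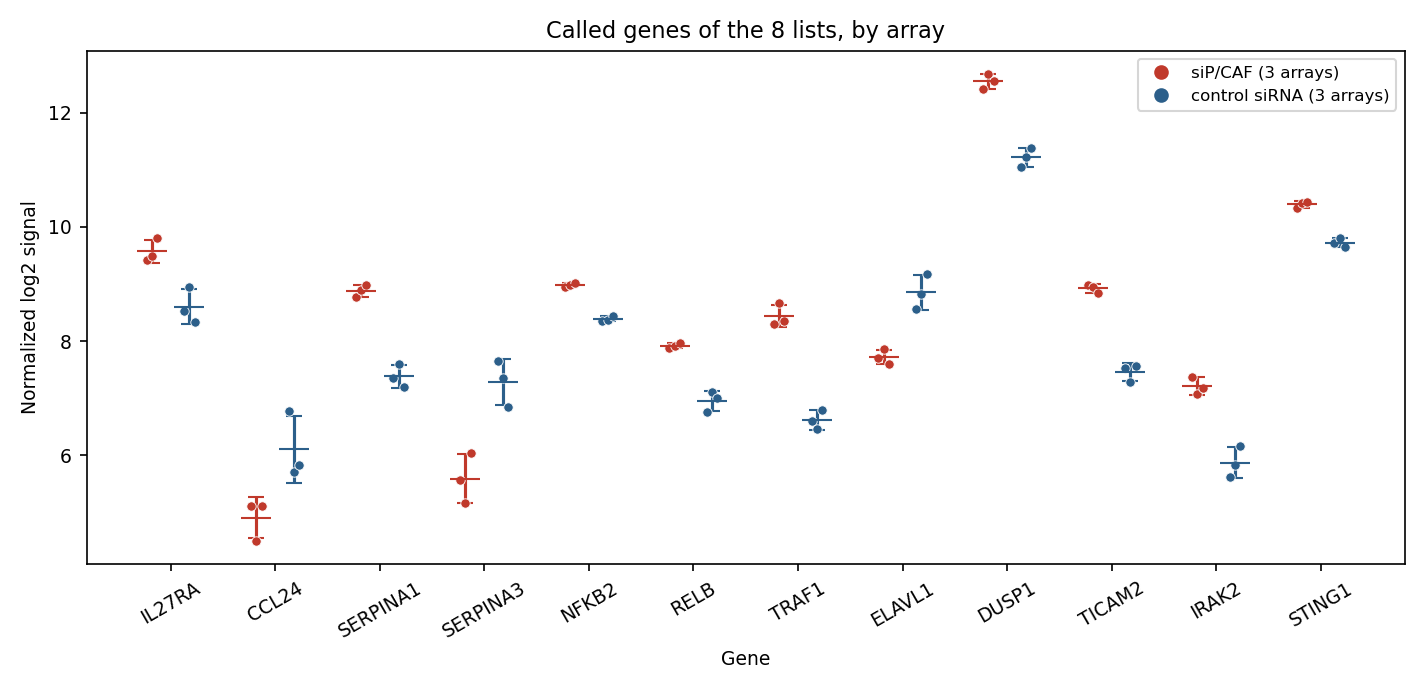
Normalized log2 signal of the 12 called genes of the 8 lists on the 3 siP/CAF arrays (red, left) and the 3 control siRNA arrays (blue, right); points are arrays, horizontal bars means and whiskers SD over 3 arrays. SERPINA3, CCL24 and ELAVL1 are lower in siP/CAF cells and the other 9 higher, DUSP1 by 1.33 and TRAF1 by 1.82 on the log2 scale.

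Markers of leukocytes, which make many of these proteins in tissue, were examined in the same arrays. Of 18 markers, 17 had a probe, of which between 8 and 9 were detected per siP/CAF array and between 6 and 8 per control siRNA array. Their summed signals ranged from 3051 to 3228 in siP/CAF cells and from 2452 to 2726 in control siRNA cells. The pan-leukocyte gene PTPRC, the T-cell gene CD3E and the B-cell gene MS4A1 were detected on no array by any of their probes, and the macrophage gene CD163 by 1 of 3 probes on 1 control siRNA array. By at least 1 of their probes, CD14, CD68, AIF1, FCGR3A and NKG7 were detected on every array of both groups. CD2 was detected on 3 siP/CAF and 2 control siRNA arrays. CSF1R, a macrophage growth factor receptor, rose by 1.26 on the log2 scale (limma, Benjamini-Hochberg adjusted p = 0.00160), and the lysozyme gene LYZ, which passed the filter through the siP/CAF arrays alone, was at least 1.30-fold higher (limma, Benjamini-Hochberg adjusted p = 0.0220; not called without background correction or without control siRNA array 1 or any 1 siP/CAF array, up to 0.117). Of all tested genes, 2.28% rose. A second LYZ probe was detected on no array and overlapped between groups. The other 7 tested leukocyte markers were not called. All 9 tested markers were higher in siP/CAF cells, by at least 0.10 on the log2 scale. Their median log2 difference was 0.21, where that of all tested genes was -0.01. The part of CSF1R and LYZ in the results above was not tested.

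Of the markers of endothelium, liver and epithelium, 3 of 14 were tested, 1 fell (3.09% of all genes fell) and none rose. PECAM1 fell by 0.59 (limma, Benjamini-Hochberg adjusted p = 0.0433), and the call was lost when any 1 array other than control siRNA array 3 was left out. AFP measured 0.78 and was not called. The endothelial gene CDH5, not tested, read 91.9, 103.5 and 94.7 in siP/CAF cells, against 61.6, 57.9 and 71.8 in control siRNA cells. CDH5 did not overlap between groups and was detected on 2 siP/CAF arrays and no control siRNA array, as was 1 TEK probe, whose signals overlapped. The summed signals of these 14 markers ranged from 2474 to 2866 in siP/CAF cells and from 2263 to 2618 in control siRNA cells. Of 15 tested muscle tumour markers 2 fell (13.3%, where 3.09% of all genes fell) and none rose, with a median of -0.46. They were MYOG, the driver of terminal muscle differentiation, which fell by 1.67 (limma, Benjamini-Hochberg adjusted p = 6.88e-04), and the growth factor gene IGF2, which fell by 0.71 (limma, Benjamini-Hochberg adjusted p = 0.0460, lost when any 1 array other than control siRNA array 3 was left out). A second IGF2 probe fell by 0.81 (limma, Benjamini-Hochberg adjusted p = 0.0204), and a further IGF2 probe was detected on no array. The receptor gene CHRNA1 measured -0.73 and was not called. The summed signals of the muscle tumour markers ranged from 59364 to 65608 in siP/CAF cells and from 57678 to 83329 in control siRNA cells.

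The mean standardised profile of the 6 tested genes was followed over the 6 arrays by other genes. Pearson's r with it was 0.98 for LIF, 0.94 for SAA1, 0.93 for CXCL8 and EBI3, 0.67 for CCL2 and 0.29 for IL11, which are all part of the profile. The most similar other genes were STX4, SFTA1P, S100A3, RAC2, C19orf33 and FBXL6, with r between 0.985 and 0.990. Of 11800 genes compared, 244 reached an r of at least 0.9. The points share the 2 groups, so a gene that differs between groups correlates by that alone. These 6 genes were picked by a profile that itself differed between groups, so their calls are a description and no test. SFTA1P (1.42), C19orf33 (1.14) and RAC2 were called higher, where 2.28% of all tested genes were. RAC2, which no control siRNA array detected, passed the filter through the siP/CAF arrays alone and was at least 1.23-fold higher. The other genes, STX4 (0.57), S100A3 (0.77) and FBXL6 (0.30), were not called. SFTA1P and C19orf33 lost the call without control siRNA array 1, C19orf33 also without control siRNA array 3, and RAC2 without control siRNA array 1 or siP/CAF array 1 or 3. Without background correction RAC2 and C19orf33 were not called.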

How the data were processed

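Rh30 cells given siP/CAF (3 samples) or control siRNA (3 samples) were compared. The labels' protocols give Trizol extraction, biotin-labelled cRNA and 1-colour Illumina HT-12 bead arrays. The deposited table holds a bead signal per probe and array as intensity on a linear scale, called non-normalized per the file headers, and beside it a deposited score headed as a p value. That score rises with the signal and was read, from the values, as 1 minus the detection p. The deposited series matrix, used as an alternative, holds values on a log2 scale with a median of 0 per column. The sources used here do not give its normalization, and its scale and direction were found by setting it against the signals (r between 0.933 and 0.970).

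Background was corrected by normexp from the detection p-values, followed by an offset of 16, quantile normalization between arrays and log2 (neqc, limma 3.58.1, R 4.3.3). Background treatment compresses or stretches differences of dim probes. A probe was tested, by lmFit and eBayes without a block, if 3 or more of the 6 arrays detected it (p under 0.05). Benjamini-Hochberg adjustment ran over the whole set of 21232 such probes. The number of arrays limits the precision. Errors are SD over 3 arrays. A log2 difference is siP/CAF minus control siRNA throughout. Where no array of a group detected a probe, the fold is a lower bound, on the normalized scale, against the lowest detected value per array. Gene names come from the platform's annotation table (30113 of 47323 probes with 1 symbol, 8 with several, 17202 with none), and 0 symbols changed on updating. The procedure was tested on simulated data.

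The 10 genes and the 11 gene lists were chosen with earlier results of these data known. Genes named are all probes of the 10 genes, KAT2B, in each list the 3 tested genes with the smallest p and every called gene, and the 6 genes most similar in profile. Other list members, second probes and neighbouring genes were named after their values were seen. Alternatives were other background corrections, scaling, the deposited matrix, other filters, array weights, each array left out and a replicate block.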

Additional observations from a re-analysis of the deposited data

How the results depend on the processing

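The 3 called genes among the 10 (SAA1, CXCL8 and EBI3) kept direction and call under each alternative in which they were tested. SAA1 was not tested where probes had to be detected on all 6 arrays, which left 2 called. As the 10 genes were chosen on this contrast in these same arrays, the kept calls describe the processing only and support nothing further. The median log2 difference of the tested genes among the 10, 1.31 as reported, was 0.96 without background correction, 1.04 in the deposited matrix and 0.41 over probes detected on all 6 arrays, where SAA1 drops out. It lay between 1.19 and 1.42 with 1 array left out. CCL2 measured -0.14 with the replicate block of the labelled pairs. With 1 array left out IL11 lay between -0.14 and 0.080, above 0 when that array was siP/CAF array 1 (0.029), siP/CAF array 2 (0.080) or control siRNA array 3 (0.073). CFB measured -0.0035 without control siRNA array 2 and up to 0.33 without any other array. ALB measured 0.19 with array weights, 0.076 without siP/CAF array 3, 0.22 without control siRNA array 2 (down to -0.23 without another array) and 0.035 with the replicate block of the labelled pairs. None of these 4 genes was called in any of them. The count of called genes, 634 as reported, was 1748 with array weights, 196 with the replicate block of 3 pairs and 442 with the block of the labelled pairs, and lay between 209 and 720 with 1 array left out. List genes called, 12 as reported, were 35 with array weights and between 8 and 18 with 1 array left out. KAT2B lay between -2.91 and -2.56 with 1 array left out.

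The replicate numbers pair samples by number only. Deviations from the group mean of same-numbered arrays correlated at -0.15 and -0.41 for the labelled pairs 1 and 2, so no pairing was used. With the block of 3 pairs, RELB measured 0.97 and was not called (limma, Benjamini-Hochberg adjusted p = 0.0508). Bead signals near background limit what can be said of SAA2, CXCL1, CXCL2 and IL6, whose differences below that level are not measurable here.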

Other observations

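The chemokine and SAA genes lie in clusters, and their neighbours on the chromosome were read as well. Between CXCL8 and CXCL2 on chromosome 4, 7 other protein-coding genes lie in order, CXCL6, PF4V1, CXCL1, PF4, PPBP, CXCL5 and CXCL3. Of these, PPBP was detected on all 6 arrays and measured a log2 difference of 0.12 (limma, Benjamini-Hochberg adjusted p = 0.841), CXCL5 was detected on 1 siP/CAF array, and the others on none. Beside SAA1 on chromosome 11, SAA2, SAA4 and MRGPRX4 on one side were detected on no array. HPS5, GTF2H1 and LDHA on the other side were detected on all 6 and measured 0.42, 0.14 and 0.02, none of them called (limma, Benjamini-Hochberg adjusted p between 0.204 and 0.978). Neighbours and their order come from the RefSeq gene table of GRCh38.p14.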
